A study of Gasterosteus aculeatus with 53 samples.

Results

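Female threespine sticklebacks of the benthic species from Paxton Lake were each courted by 1 male, and the RNA of their whole brains was compared between females courted by a conspecific male (benthic, from the same lake) and females courted by a heterospecific male (limnetic, from the same lake). The comparison held 10 of the 53 libraries of the series, 5 of each treatment, chosen by population and treatment label and not by any measured value. A sixth library labelled Paxton benthic with a conspecific male, that of trial 83, was left out, as the study left it out as a suspected sample swap. Paxton benthic females kept with another female of their lake and species formed the social control (n = 6). Paxton limnetic and Priest limnetic females under the same treatment labels were used to ask whether a difference was shared. For them the conspecific male was limnetic and the heterospecific male benthic, each from the female's own lake. The libraries of these limnetic females also entered the fit from which the spread of each gene was estimated, and so bear on its SE and p. All were reproductive females collected from lakes of Texada Island and killed at spawning or after a fixed short trial, with 1 library per female. Ages were not given in the sources used here.

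Benthic and limnetic sticklebacks are a pair of young species that live in the same lakes. Benthics feed near the shore and the bottom, limnetics in open water, and females of each tend to reject males of the other. A courting male zigzags in front of the female, leads her to his nest and shows it to her, while she follows, inspects or turns away. Brain transcripts sampled during such an encounter can reflect the state that a female brought to it as well as her reaction to the male, and a whole-brain library cannot tell fewer cells of a type from less RNA per cell. The count table carries Ensembl gene identifiers without names, and 0 of its 22456 identifiers matched a name in the reference table used here, so roles are not given for the genes below and brain markers could not be checked.

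The 10 libraries held between 29537339 and 45778325 counts each, the fewest in the library of trial 43 (conspecific). Total counts averaged 37511695 ± 5180122 with conspecific males and 40102464 ± 4625023 with heterospecific males (SD, n = 5 each; exact permutation test, two-sided, p = 0.460, adjusted p = 0.921 over 4 library measures). The number of genes detected (exact permutation p = 0.698), the share of counts in the 10 most abundant genes (p = 0.286) and the trial number (p = 1) did not part the treatments beyond the spread of libraries either. Correlations of log2 CPM, the counts of each library scaled to a common total, between pairs of libraries lay between 0.965 and 0.985 within the conspecific treatment, between 0.976 and 0.982 within the heterospecific treatment and between 0.965 and 0.984 across treatments. These ranges overlapped. The correlations were taken over all genes without centring, so they mostly follow differences in level between genes and cannot show whether treatments differed.

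Few genes separated the treatments, and the genes that passed the test were low in both. Of 20011 genes tested, 0 were called higher and 3 were called lower with conspecific than with heterospecific males (edgeR quasi-likelihood test, adjusted p under 0.1, the study's threshold), which is 0.015% of the genes tested. At an unadjusted p under 0.05 stood 1490 genes (7.45%), of which 797 (3.98%) were higher and 693 (3.46%) lower. Most differences were small, since 92.7% of genes had a log2 fold change within 0.5 of zero, and 329 lay beyond 1 in either direction. Of these 329 genes, 231 had a mean CPM under 1 and 20 a mean CPM of 10 or more.

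The 3 called genes were set by females of the heterospecific treatment with high values. ENSGACG00000002893 had 1.82, 0.575, 1.01, 1.96 and 1.61 CPM in the conspecific libraries of trials 34, 43, 64, 67 and 88, against 1.68, 9.53, 1.24, 1.88 and 13.2 CPM in the heterospecific libraries of trials 14, 31, 77, 85 and 90. The females of trials 31 and 90 stood far above all others, while the other 3 heterospecific libraries lay within the conspecific range. The gene was lower with conspecific than with heterospecific males by 1.97 on the log2 scale (SE 0.39, edgeR adjusted p = 0.0811). In the social control it ranged between 1.45 and 2.20 CPM, so the high level was seen in 2 of the 16 Paxton benthic females.

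The third gene called stood in the next row of the count table and was high in the same females, with 16.5 CPM in trial 31 and 16.9 CPM in trial 90. Its other heterospecific libraries held 1.86, 2.01 and 1.95 CPM, its conspecific libraries between 1.45 and 2.29 CPM and its social controls between 2.07 and 3.48 CPM. It was lower with conspecific than with heterospecific males by 1.92 on the log2 scale (SE 0.39, edgeR adjusted p = 0.0811). Across the 16 Paxton benthic libraries the log2 CPM of these neighbouring genes correlated at r = 0.941, and across the 35 limnetic libraries at r = 0.321, a description only, since the high values of 2 females carry the first value. The files give no positions, so whether the 2 genes lie side by side or share reads was not tested.

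ENSGACG00000012351 had 2.97, 1.05, 1.98, 2.41 and 1.58 CPM in the conspecific libraries of trials 34, 43, 64, 67 and 88, against 4.20, 2.86, 3.91, 2.87 and 15.1 CPM in the heterospecific libraries of trials 14, 31, 77, 85 and 90. The groups overlapped only through trial 34, which lay above trials 31 and 85, and the heterospecific female of trial 90 stood apart. The gene was lower with conspecific than with heterospecific males by 1.53 on the log2 scale (SE 0.31, edgeR adjusted p = 0.0811). Its social controls ranged between 1.68 and 4.20 CPM. In limnetic brains this gene was more abundant on average. Means were 14.6 ± 4.69 CPM with conspecific and 14.0 ± 2.33 CPM with heterospecific males in Paxton limnetic females (SD, n = 6 each). In Priest limnetic females they were 8.63 ± 0.59 CPM (SD, n = 5) and 8.94 ± 2.01 CPM (SD, n = 6). The 15.1 CPM of the benthic female of trial 90 lay within the range of Paxton limnetic females with conspecific males, 10.5 to 22.6 CPM. The cause of her level was not tested.

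Which genes were called changed with single libraries. Without the heterospecific library of trial 90, none of the genes was called (978 at an unadjusted p under 0.05), and ENSGACG00000012351 then differed by -0.79 on the log2 scale (SE 0.25, edgeR adjusted p = 0.814). None was called either when any 1 of the 5 conspecific libraries was left out, with 783 to 3055 genes at an unadjusted p under 0.05. The fold changes stayed of similar size in those 5 fits, at -2.12 to -1.77 for ENSGACG00000002893, -1.70 to -1.37 for ENSGACG00000012351 and -1.96 to -1.81 for the third gene on the log2 scale. Without trial 31, 1 was called. With other tools on the same libraries, DESeq2 called 7 genes, the same 3 among them, and limma-voom with sample weights called 33 genes, 11 higher and 22 lower, with 0 of the 3 among them.

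**Figure D1:**
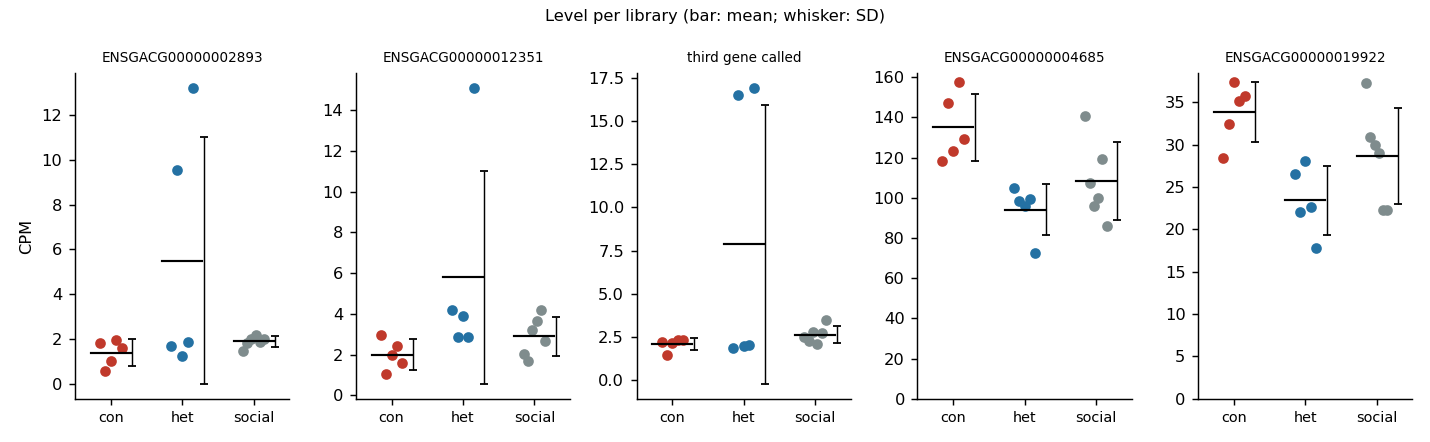
CPM per library (vertical axis, linear, 1 point per female) of the 3 called genes and of the 2 genes with the smallest p among those higher with conspecific males, for conspecific (con), heterospecific (het) and social control (social) Paxton benthic females; bars are means and whiskers SD. Trials 31 and 90 stand far above the rest in ENSGACG00000002893 and its neighbour and trial 90 in ENSGACG00000012351, while in ENSGACG00000004685 and ENSGACG00000019922 every conspecific value lies above all heterospecific ones.

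No gene passed the test in the other direction. The 2 with the smallest p separated all 10 libraries, an outcome favoured by their choice on the same libraries. ENSGACG00000004685 had 118, 147, 123, 158 and 129 CPM in the conspecific libraries of trials 34, 43, 64, 67 and 88, against 105, 98.3, 95.7, 99.4 and 72.4 CPM in the heterospecific libraries of trials 14, 31, 77, 85 and 90. The groups did not overlap, and the log2 fold change was 0.52 (SE 0.12, edgeR adjusted p = 0.291). Its social controls ranged between 86.1 and 141 CPM and so spanned both treatments. DESeq2 (adjusted p = 0.0523) and limma-voom (adjusted p = 0.0633) called this gene.

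ENSGACG00000019922 had 28.4, 32.4, 37.5, 35.2 and 35.7 CPM in the conspecific libraries of trials 34, 43, 64, 67 and 88, against 26.6, 22.1, 28, 22.6 and 17.8 CPM in the heterospecific libraries of trials 14, 31, 77, 85 and 90. The lowest conspecific library, trial 34, lay just above the highest heterospecific one, trial 77. The log2 fold change was 0.53 (SE 0.13, edgeR adjusted p = 0.401), and the social controls ranged between 22.3 and 37.3 CPM. Limma-voom called it at an adjusted p of 0.0366, and DESeq2 gave an adjusted p of 0.140.

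Complete separation of the 10 females was rare. In 207 genes (1.03% of those tested) the CPM values of the treatments did not overlap. In 95 of them (0.475%) every conspecific library lay above every heterospecific one, and in 112 (0.56%) every heterospecific library lay above. If treatment labels were unrelated to a gene, the chance of complete separation in either direction would be 0.00794, the smallest two-sided exact permutation p. The observed share of 1.03% is near that rate, so many of the 207 genes could separate without a treatment effect. Genes vary together, and whether the 207 exceed the number from such separation was not tested. EdgeR called none of the 207, DESeq2 2 and limma-voom 9, and 71 of the 95 and 76 of the 112 stood at an unadjusted p under 0.05. Median log2 fold changes were 0.31 in the genes with conspecific values above and -0.37 in those with heterospecific values above, against -0.02 over all genes tested. Choosing genes by separation of the same libraries fixed the signs of both set medians and favoured a low p, so these values are a description. Differences beyond a log2 of 1 were found in 1 of the 95 genes and in 20 of the 112.

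The social control lay on the heterospecific side in most of the genes with conspecific values above. Its mean was nearer to the conspecific than to the heterospecific mean in 17 of these 95 genes, against 45.2% of all genes tested. In the genes with heterospecific values above it was nearer to the conspecific mean in 46 of 112 (41.1%), a share near that of all genes. For the 20 genes with heterospecific values above by more than a log2 of 1, it was nearer to the conspecific mean in 13, and in 6 of them all 6 social controls lay below all 5 heterospecific females. Those 6 include the genes at places 1, 3, 8 and 10 of a run of rows described below. These run genes varied together across females and are not separate instances. These sets were chosen by the courted libraries, so the counts are a description. The social controls came from trials 39, 82, 84, 87, 89 and 91, mostly late ones, and the part of trial order was not tested.

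How many genes separated the treatments depended on 1 conspecific female, that of trial 34. Without her library, 1637 of the 20011 genes did not overlap, 900 with conspecific and 737 with heterospecific values above. Leaving out any other single library gave 271 to 587 such genes of the same 20011. A count of this kind rises whenever a library is left out, so the 9 other values are the ones to set beside 1637. The number of genes at an unadjusted p under 0.05 was 3055 without trial 34 and 783 to 2048 without any other library. EdgeR still called 0 genes without trial 34, with a smallest adjusted p of 0.105. By contrast DESeq2 called 341 of 21794 genes (236 higher and 105 lower) and limma-voom 634 of 20105 (462 higher and 172 lower). Both of these fits were chosen after seeing the data. Neither tool was run with any other library left out, so their counts cannot be set beside those of other omissions. The library of trial 34 held 38898893 counts and 20650 detected genes, within the range of the others, and 6.88% of its counts fell on the 10 most abundant genes, the largest share of the 10 libraries. In the other conspecific libraries this share was 5.55 to 5.98%, against 6.11 to 6.55% in the heterospecific ones. Without trial 34 the share differed by -0.519 percentage points (exact permutation p = 0.00794), the extreme of 10 such omissions. The p was not adjusted for that choice. Whether the share has a part in the position of trial 34, or in the counts without it, was not tested.

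**Figure D2:**
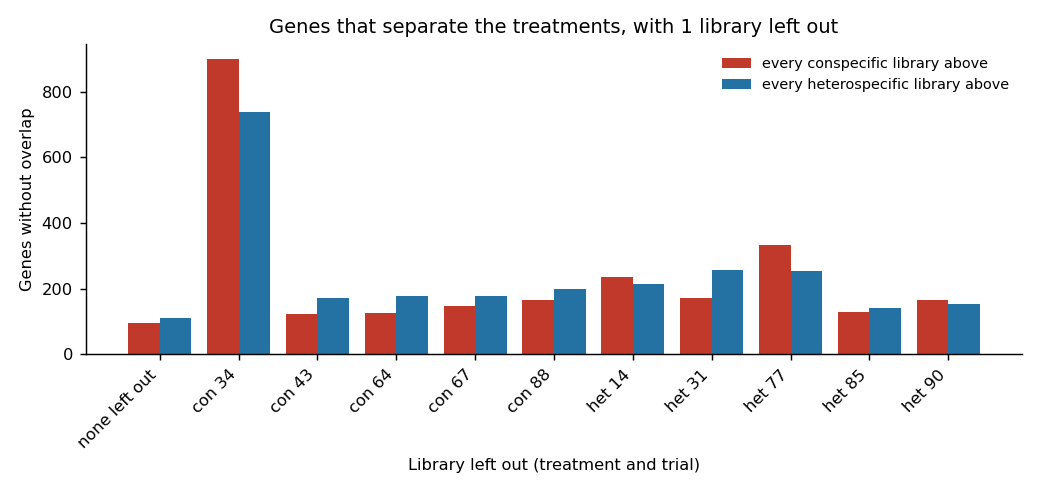
Number of genes (vertical axis) whose conspecific (con) and heterospecific (het) CPM values do not overlap, with none or with 1 library left out (horizontal axis, treatment and trial number). Red bars count genes with every conspecific library above and blue bars genes with every heterospecific library above. Without the conspecific library of trial 34 they reach 900 and 737, against 95 and 112 with none left out. Such a count rises whenever a library is left out, so the bars of the other omissions are the ones to set beside 900 and 737.

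The same library stood out in a principal component analysis of the 16 Paxton benthic females. Component 1, with 17.2% of the variance, scored 10.0 to 49.4 in the conspecific libraries of trials 43, 64, 67 and 88 but -27.0 in trial 34. The heterospecific libraries scored between -29.7 and 3.93, and the social controls spread over both, between -31.5 and 33.9. Mean scores were 13.6 ± 27.4 with conspecific and -12.9 ± 13.0 with heterospecific males (SD, n = 5 each), a difference of 26.6 that did not exceed the spread of libraries (exact permutation test, two-sided, p = 0.0873, adjusted p = 0.262 over 3 components, smallest p possible 0.00794). Without trial 34 the difference was 36.7 (exact permutation p = 0.00794), which is the extreme of 10 such omissions and was not adjusted for that choice. Over the 10 omissions the p ranged between 0.00794 and 0.190.

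Components 2 and 3, with 10.7% and 9.12% of the variance, did not part the treatments (exact permutation p = 0.786 and 0.627). On component 2 the conspecific females took both ends of the courted range, with -40.0 in trial 43 and 24.7 in trial 88. Conspecific libraries lay on average 0.467 ± 0.0821 log2 units from the mean of the others of their treatment, and heterospecific libraries 0.439 ± 0.0233 (root mean square over genes, SD, n = 5 each; exact permutation test, two-sided, p = 0.643). Trials 43 (0.566) and 34 (0.535) were the farthest from their group.

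**Figure D3:**
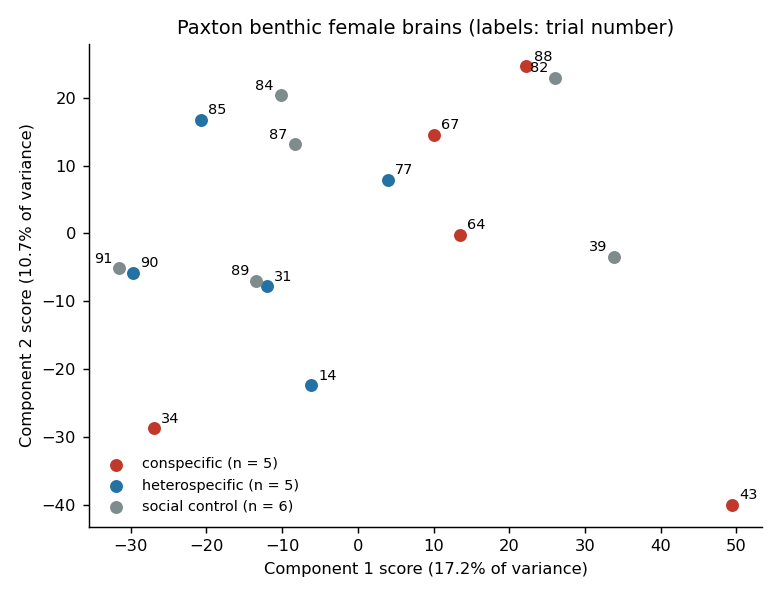
Scores of 16 Paxton benthic female brains on component 1 (horizontal axis, 17.2% of variance) and component 2 (vertical axis, 10.7% of variance) of log2 CPM, 1 point per library with its trial number, coloured by treatment. Conspecific libraries lie at 10.0 or more on component 1 except trial 34 at -27.0, and the social controls span both courted groups.

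Among the genes at an unadjusted p under 0.05, the extreme values were most often those of another conspecific female, that of trial 43. She had the highest value of the 10 females in 459 (57.6%) of the 797 genes that were higher with conspecific males. Since these genes were chosen for high conspecific values, the share to set beside this is hers among all tested genes whose highest value was in a conspecific female, 33.8%. She had the lowest value in 362 (52.2%) of the 693 genes that were lower, against 35.7% of all genes whose lowest value was in a conspecific female. Among heterospecific females, that of trial 90 had the lowest value in 329 (41.3%) of the 797 genes, against 23.3% of all genes whose lowest value was in a heterospecific female. By contrast trial 34 held the highest value in 51 and the lowest in 65 of the 797 genes. The library of trial 43 was also the shallowest of the 10, and the part of depth in these shares was not tested. Without it, 783 genes stood at an unadjusted p under 0.05.

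**Figure D4:**
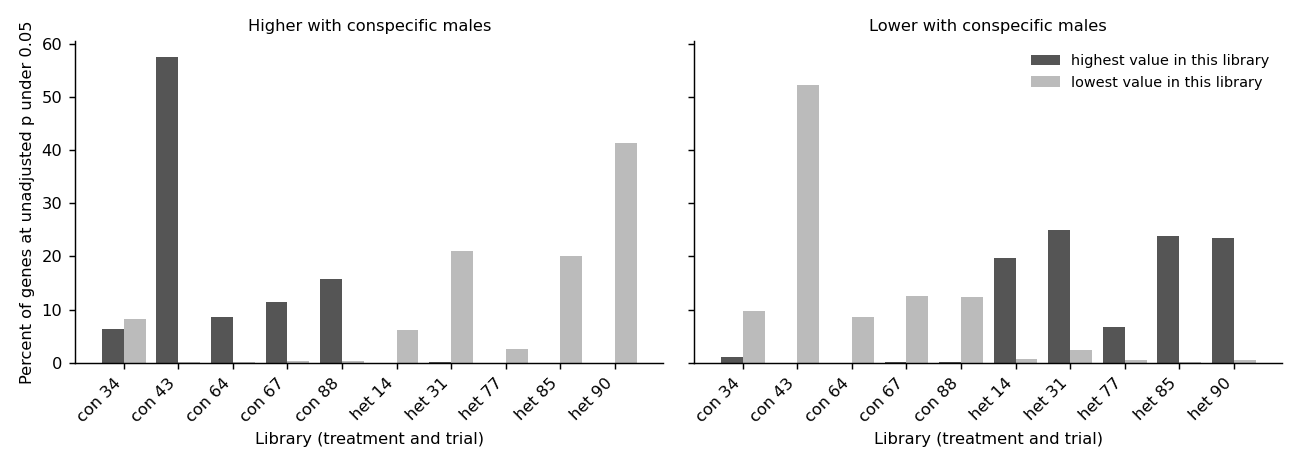
Percent of genes at an unadjusted p under 0.05 (vertical axis) for which each library (horizontal axis, treatment and trial number; con conspecific, het heterospecific) held the highest (dark bars) or lowest (light bars) value of the 10, for 797 genes higher (left) and 693 genes lower (right) with conspecific males. Trial 43 held the highest value in 57.6% of the first and the lowest in 52.2% of the second.

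Among the 20 non-overlapping genes lower with conspecific males by more than a log2 of 1, 5 stood in a run of 10 successive rows of the count table. This run was drawn from the same 20 genes. It started at the most abundant of them and was extended while another of the 20 lay within 5 rows. That rule made both ends members and favoured low p, so the counts and genes of the run are a description. Of its 10 genes, 7 were lower with conspecific males at an unadjusted edgeR p under 0.05, against 3.46% of all genes tested. In the run 3 genes were under 1 CPM. EdgeR and DESeq2 called none of them in this comparison and limma-voom called 3. The most abundant, at place 10 of the run, had 424, 209, 353, 640 and 543 CPM in the conspecific libraries of trials 34, 43, 64, 67 and 88, against 1803, 752, 756, 1612 and 1206 CPM in the heterospecific libraries of trials 14, 31, 77, 85 and 90. All conspecific females lay below all heterospecific ones. Its log2 fold change was -1.50 (SE 0.39, edgeR adjusted p = 0.442). The 6 social controls, between 284 and 536 CPM, lay within the conspecific range and below every heterospecific female.

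Summed over the 3 most abundant genes of the run, at places 8 to 10, the level was 749 ± 293 CPM with conspecific males, 2156 ± 866 CPM with heterospecific males (SD, n = 5 each) and 637 ± 155 CPM in the social control (SD, n = 6). Trials 14 (3176 CPM), 85 (2852 CPM) and 90 (2158 CPM) were the highest, and trials 77 (1278 CPM) and 31 (1316 CPM) the lowest of the heterospecific females. The conspecific females reached 1110 CPM at most, in trial 67. At the level of trial 14, these genes took 0.318% of the library as scaled CPM, which is not exactly a share of its raw counts.

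A set of genes varied with the most abundant gene of the run across individual females. Over the 16 Paxton benthic libraries, 10 genes had a Pearson correlation of log2 CPM above 0.9 with it, 6 in the run and 4 elsewhere in the table. In the 35 limnetic libraries, which were not used to choose them, the same 10 genes correlated with it at 0.750 to 0.938. This is a description over libraries that share depth and scaling. Both limnetic populations were pooled without centring, so differences in level between them enter these values. The log2 fold changes of the 10 genes lay between -1.90 and -0.65, a direction that the choice of genes by likeness over libraries of the same comparison fixed. The most abundant of the 4 outside the run averaged 583 ± 266 CPM with conspecific and 1508 ± 633 CPM with heterospecific males (SD, n = 5 each), against 455 ± 158 CPM in the social control (SD, n = 6).

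Heterospecific courtship and social control differed in 5 of these genes. Between those groups 6 genes were called (0.03% of genes tested, edgeR, adjusted p under 0.1), and 5 of the 6 belonged to the most abundant gene of the run and its 10 companions. The most abundant gene rose with heterospecific males by 1.78 on the log2 scale over the social control (SE 0.37, edgeR adjusted p = 0.0618). Between conspecific courtship and social control 2 genes were called (0.00999%), 0 of them in this set, and for the most abundant gene the log2 difference was 0.28 (SE 0.36, edgeR adjusted p = 0.901). The heterospecific libraries enter both comparisons with heterospecific males. The companions were chosen by their likeness over the same 16 libraries, social controls included, so the count of 5 is a description and not separate evidence. All social controls but that of trial 39 came from trials 82 to 91. The part of trial order in comparisons with the social control was not tested.

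**Figure D5:**
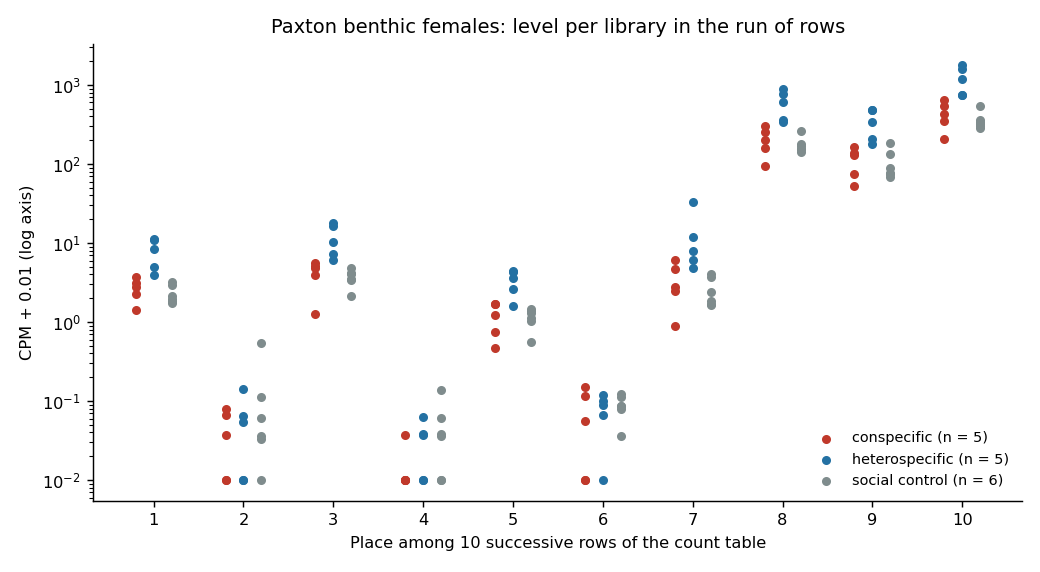
CPM + 0.01 (vertical axis, log scale) of the 10 genes in successive rows of the count table (horizontal axis, place in the run) in conspecific (red), heterospecific (blue) and social control (grey) Paxton benthic females, 1 point per library. At places 8 to 10 every heterospecific female lies above every conspecific female, and genes at places 2, 4 and 6 are near zero in all groups.

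Sorted by treatment label, the group means of the same genes stood in other orders in limnetic females. The summed level of the 3 most abundant genes was 993 ± 624 CPM with conspecific, 580 ± 279 CPM with heterospecific males and 843 ± 327 CPM in the social control in Paxton limnetic females (SD, n = 6 each). In Priest limnetic females it was 1108 ± 390 CPM with conspecific males (n = 5), 1503 ± 718 CPM with heterospecific males and 1579 ± 621 CPM in the social control (SD, n = 6 each). For the most abundant gene, the log2 response in Paxton benthic females minus that in Paxton limnetic females was -2.32 (SE 0.52, edgeR adjusted p = 0.374), and minus that in Priest limnetic females -1.08 (SE 0.53, edgeR adjusted p = 0.994). Neither difference passed the test. The labels name opposite male species in benthic and limnetic females. By male species, the summed mean was 2156 CPM with limnetic and 749 CPM with benthic males in Paxton benthic females. With the limnetic male first, it was 993 and 580 CPM in Paxton limnetic and 1108 and 1503 CPM in Priest limnetic females. Whether the differences in response go with male species was not tested.

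Over all genes, no difference in response between populations passed the test. The response of Paxton benthic females to conspecific against heterospecific males differed from that of Paxton limnetic females in 0 genes (edgeR, adjusted p under 0.1; 1314 genes, 6.57%, at an unadjusted p under 0.05; DESeq2 and limma-voom 0 each). It differed from that of Priest limnetic females in 0 genes (631 genes, 3.15%, at an unadjusted p under 0.05; DESeq2 0, limma-voom 1). Of the 95 genes with conspecific values above in Paxton benthic females, 64 (67.4%) were higher with conspecific males in Paxton limnetic females. In Priest limnetic females 59 (62.1%) were higher. Of all genes, 49.0% and 52.0% were higher in these populations. Of the 112 genes with heterospecific values above, 60 (53.6%) were lower with conspecific males in the Paxton limnetic population and 67 (59.8%) in the Priest one. There 51.0% and 48.0% of all genes were lower. Among the 20 of the 112 with a log2 fold change under -1, 10 and 13 were lower. Genes vary together and are not separate instances, so these counts are a description. The conspecific male was limnetic for these females and benthic for the benthic ones. Median differences in limnetic females were small in both sets, at 0.05 and 0.02 on the log2 scale for the 95 genes and -0.02 and -0.03 for the 112, with the Paxton value first in each pair.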

How the data were processed

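The authors combined lanes, checked reads with FastQC 0.11.1, trimmed them with Trimmomatic 0.33, aligned them with BWA 0.7.7 to the Ensembl stickleback genome sorted the alignments with SAMtools 1.2 and counted reads per gene with bedtools 2.23.0. The deposited values are raw counts for 22456 identifiers in 53 libraries, 21798 with a count, and whether strand was used is not given in the sources used here. Here 51 libraries (without trials 83 and 9, suspected swaps) entered 1 fit in edgeR 4.0.16 (R 4.3.3) with TMM scaling, filterByExpr, a mean for each of 9 groups and a shared spread, and p-values were adjusted over 20011 genes (Benjamini-Hochberg). Scripts were tested on simulated data. DESeq2 1.42.0 and limma 3.58.1 were alternatives. Log2 CPM used a prior count of 2. Genes named are the 2 with the smallest p in each direction, and other genes are described by rules or position. The members and lists were chosen with earlier results of these data known. Planned pathway and cell type lists could not be applied without gene names. One library had different trial numbers in its labels, and 88, that of its column, was used. Each treatment's libraries come from separate females.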

Additional observations from a re-analysis of the deposited data

Results flagged for a closer look

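Of 68 groups of 5 or 6 values examined, 7 held a library far from the rest by Dixon's criterion. Its rate of about 1 in 20 holds for unselected, independent values with a normal spread. Many of these groups were levels of genes chosen from the same data or varying together, so the count cannot be compared with that rate. In the third gene called, the conspecific library of trial 43 was low at 1.45 CPM, with the next at 2.12 CPM. The heterospecific library of trial 90 was low in ENSGACG00000004685, at 72.4 CPM with the next at 95.7 CPM, and high in ENSGACG00000012351, at 15.1 CPM with the next at 4.20 CPM. In the gene at place 7 of the run of rows, the heterospecific library of trial 85 was high at 32.6 CPM, with the next at 12 CPM. In the social control, trial 87 was high in the genes at places 8 and 10, at 262 and 536 CPM with the next at 177 and 355 CPM. The trial number 39 of a social control stood apart, the next being 82. The cause of these values was not tested.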

How the results depend on the processing

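The calls numbered 3 under relative log expression or upper-quartile scaling, without a filter, at a mean CPM of at least 1 and with robust dispersion, and 2 with all 53 libraries. With trial number as a covariate (1618 at an unadjusted p under 0.05), with the 10 courted Paxton benthic libraries alone (1622) or with all 16 (1317), edgeR called 0, while the log2 fold changes of ENSGACG00000002893 and ENSGACG00000012351 stayed at -1.97 to -1.96 and -1.52 to -1.49 (adjusted p = 0.116 with the covariate, 0.582 with 10 and 0.671 with 16 libraries). DESeq2 called 7 and limma-voom 33. Leaving out 1 library gave 0 to 4 calls. DESeq2 and limma-voom without trial 34, chosen after seeing the data, called 341 and 634, and 65 and 34 for the difference in response from Paxton limnetic females. In that DESeq2 fit the 3 genes had no adjusted p. For the difference from Priest limnetic females, limma-voom called 1 and leaving out 1 library gave 0 to 1. Of 20011 genes, the non-overlapping ones numbered 271 to 1637 with 1 library left out and 84 with trial 83 added. Component 1 differed by 19.0 to 36.7 with 1 library left out and component 2 by -9.78 to 6.62. On the 500 most variable genes component 2 differed by 0.215 and component 3 by -1.57. Conspecific minus heterospecific, the share of the 10 most abundant genes differed by -0.519 to -0.187 percentage points with 1 library left out, detected genes by -93.1 to 30.4 and trial number by -11.55 to 7.45, and by 3.77 with trial 83. For the share, the exact permutation p lay between 0.00794 and 0.516 with 1 library left out. The causes were not tested. No paired analysis was run, since each library came from a separate female under a single treatment. The labels do not give which male courted which female. Planned counts over gene lists were not run, since no identifier had a name.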

Other observations

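The library of trial 83, labelled Paxton benthic with a conspecific male and part of no comparison above, held 1.46 CPM of ENSGACG00000002893, 9.24 CPM of ENSGACG00000012351, 1.81 CPM of the third gene called, 102 CPM of ENSGACG00000004685 and 18.9 CPM of ENSGACG00000019922. Its value for ENSGACG00000012351 lay above all 5 conspecific Paxton benthic libraries and within the range of Priest limnetic females with conspecific males, 8.04 to 9.48 CPM.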
